A study of Sus scrofa with 6 samples.

Results

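The probe sets described here measured transcripts of the cytoskeleton: actins, the proteins that nucleate, bind, cap and cross-link actin filaments, myosin motors and their light chains, tubulins, and the ERM proteins (ezrin, radixin and moesin). They were chosen by the gene symbol in the array's annotation, taking symbols that begin with ARPC, ACTN, ACTR, TPM, TMSB, MYL, CFL, PFN, CAPZ, TUBA, TUBB or TUBG or with MYO and a digit, together with ACTB, ACTG1, RDX, EZR, MSN, VIL1 and GSN, and leaving out TPM2 and MYLK. The rule found 55 of the 6790 genes that the annotation names by a single symbol, and they were measured by 100 of the 24123 probe sets on the array. Of these, 4 were actin control probe sets of the manufacturer that were not tested, which left 96 among the 23999 probe sets tested on the whole array. The rule itself used no measured value, although it was set with earlier results of these data known. The symbol prefixes also caught CFLAR, a regulator of apoptosis, and MYLIP, an E3 ubiquitin ligase, which are not cytoskeletal proteins and are described as such.

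The material was uterine mucosal epithelium of 3 Landrace x Large White crossbred sows, scraped off with a glass slide. In each sow 1 oviduct was inseminated by laparoscopy and the other received diluent without spermatozoa, so that on day 6 one horn held embryos at the blastocyst stage and the contralateral horn held oocytes. RNA of each horn went onto a separate Affymetrix porcine array, for 3 arrays of oocyte horns and 3 of embryo horns, and arrays with the same replicate number were taken as the horns of the same sow. Both horns thus shared one animal and its circulation. Semen had been placed only on the side with embryos, so that the presence of embryos and the insemination cannot be told apart here.

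Actin monomers assemble into filaments that form the microvilli and the cortex of an epithelial cell. Thymosins, profilins and cofilins control the pool of free monomer, the Arp2/3 complex starts new branches, capping protein and gelsolin stop or sever filaments, and tropomyosins and alpha-actinins lie along or between them. ERM proteins tie the filaments to the plasma membrane beneath the apical surface, and in the uterus this surface is the side that meets the embryo. Myosins pull on filaments or carry cargo along them, and tubulins form the microtubules.

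All values are signals on a linear scale in arbitrary units, scaled by the authors to the same trimmed mean on each array. Differences are log2 values of signals normalized by cyclic loess, as embryo horns minus oocyte horns, so that a value of 1 is a doubling. Median signals per array ranged from 30.6 to 35.8, and between 25.4% and 29.0% of an array's signals were under 10. Where a gene had several tested probe sets, they are lettered from A in order of falling mean signal. Among the 96 tested probe sets, 62 had a mean normalized log2 signal over 4.93, the median of the whole array, and 34 lay below it. Signals of different probe sets were not compared with each other as levels, since each probe set binds its target with its own strength. The number of arrays, 3 in each group, limits the precision of every value. Markers of epithelium (7 of 8 listed genes measured, 6 above the array median) summed to signals of 7872 to 10161 with oocytes and 7652 to 10426 with embryos. Markers of stroma (5 of 7 genes, 4 above the median) summed to 3305 to 7022 and 3220 to 6559. Those of leukocytes (4 of 6 genes, 0 above the median) summed to 51.1 to 111.1 and 63.2 to 87.1. In scraped cells of this kind, fewer cells of a type and less RNA per cell cannot be told apart.

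No probe set passed the threshold after adjustment over the whole array. The paper fitted another model, on single probes and with Bonferroni correction, to these arrays. It reports a list of altered transcripts, most of them lower with blastocysts. With limma and Benjamini-Hochberg adjustment, 0 of the 96 cytoskeletal probe sets and 0 of all 23999 (0%) had an adjusted p under 0.05, and the smallest adjusted p was 1.00 in both. With the sow added to the model as a block, the counts were also 0 of 96 and 0 of 23999 (0%), with smallest adjusted p-values of 0.183 and 0.0810. At an unadjusted p under 0.05, 2 of the 96 probe sets stood out (2.08%) against 2.88% of all probe sets, 1 of them higher with embryos (1.3% of all probe sets) and 1 lower (1.59% of all). Both measured radixin. This count of 2 was 8 without the embryo array of sow 1 and 5 without the oocyte array of sow 2. It was 4 without the embryo array of sow 3, and 3 with each of the other arrays left out in turn. Over all 23999 probe sets the count of 692 became 1036, 738 and 643 in the first 3 of these fits. It lay between 554 and 747 in the others. Where a single array was left out, here and below, the model had no sow term and the other horn of that sow stayed in. Level differences between sows therefore enter those values, which are not within-sow differences. With the sow in the model 15 of 96 had an unadjusted p under 0.05 (15.6%) against 8.7% of all probe sets. Of these, 5 were higher with embryos (5.21%, against 3.75% of all) and 10 were lower (10.4%, against 4.95% of all). Among the 62 probe sets above the median signal the count was 14 (22.6%) against 11.9% of all such probe sets.

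The whole set of probe sets was centred near 0. The median log2 difference of the 96 was -0.02, with quartiles of -0.20 and 0.13, and that of all probe sets tested was 0.01, with quartiles of -0.21 and 0.20. Without the embryo array of sow 2 the median of the 96 was 0.03. A difference below 0 was found in 53 of 96 (55.2%) against 49.2% of all, and among the probe sets above the median signal in 34 of 62 (54.8%) against 48.6%. The signal was higher with embryos in all 3 sows for 12 of 96 (12.5%, against 14.9% of all) and lower in all 3 sows for 18 of 96 (18.8%, against 14.8% of all). Above the median signal these counts were 9 of 62 (14.5%) and 14 of 62 (22.6%), each against 16.5% of all such probe sets. The normalized signals of the groups did not overlap for 5 of 96 (5.21%, against 8.01% of all): with embryos above for RDX, MYLIP and MYO1F (3.12%, against 4.03% of all), and with embryos below for the other RDX probe set and a dim ACTG1 probe set (2.08%, against 3.98% of all). The last of these overlapped in the deposited signals.

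**Figure D1:**
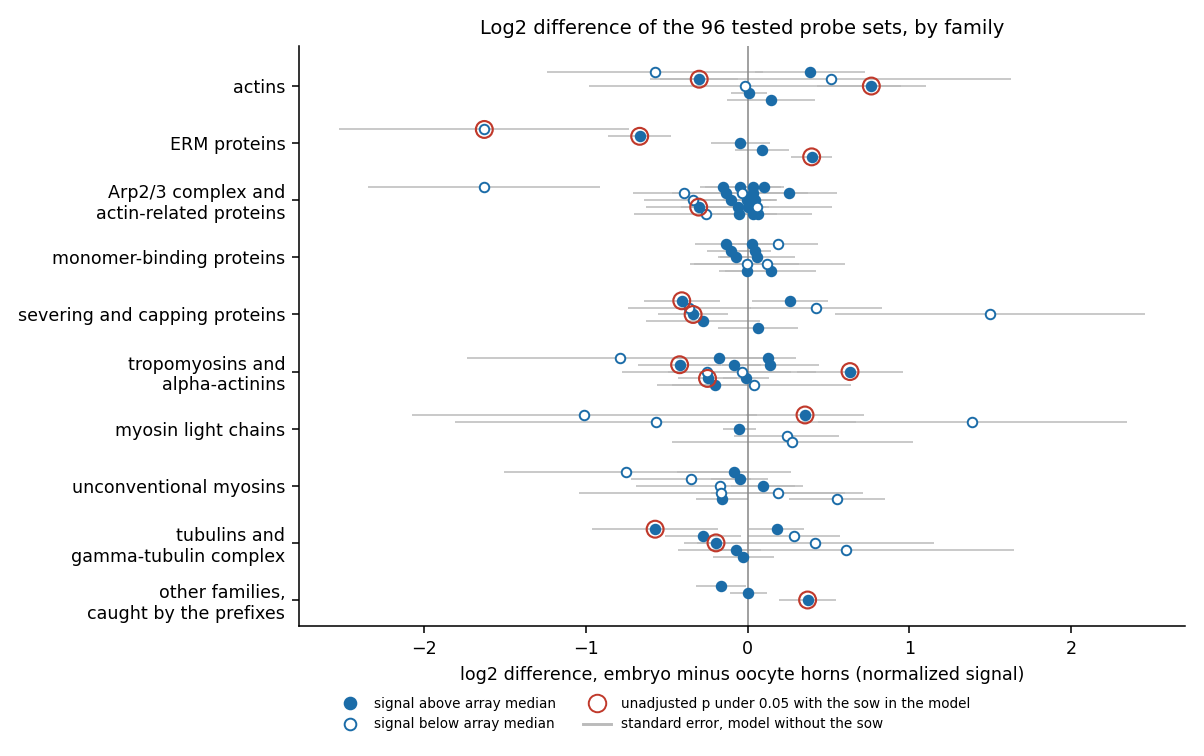
Log2 difference between horns with embryos and horns with oocytes (x axis, normalized signal, embryos minus oocytes) for each of the 96 tested probe sets, grouped by family (y axis), with grey bars for the standard error of the model without the sow and n = 3 arrays per group. Filled points lie above the median signal of the array and open points below it, and red rings mark the 15 probe sets with an unadjusted p under 0.05 once the sow was in the model. Each of the 10 families had probe sets on both sides of 0, and the 5 differences beyond 1 in size all belonged to probe sets below the median signal.

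Radixin, one of the ERM proteins, had the smallest p-values of the 96 probe sets, and its 2 probe sets pointed in opposite directions. For the probe set that is in the study's own list of transcripts (B), oocyte horns gave signals of 612.5, 527.4 and 413.6 (sows 1, 2 and 3, the order kept throughout) and embryo horns 386.9, 279.4 and 310.3. The groups did not overlap, and the horn with embryos was the lower one in each sow. The log2 difference was -0.67 (standard error 0.19, unadjusted p = 0.00799 and adjusted p = 1.00 from limma), and within sows it was -0.67, -0.93 and -0.40. This probe set was chosen by the study on the same arrays, so that its array values are not independent evidence of a direction. With the sow in the model its unadjusted p was 7.3e-05 and its adjusted p 0.183 from limma. The paper also measured RDX by qPCR relative to beta-actin, with primers listed for this probe set, and reports a significant decrease with blastocysts. Whether the qPCR used the sows of the arrays is not stated there.

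The other RDX probe set (A) read 367.0, 469.5 and 384.6 with oocytes and 490.5, 558.0 and 554.8 with embryos. Here too the groups did not overlap, but the horn with embryos was the higher one in each sow. Its log2 difference was 0.40 (standard error 0.13, unadjusted p = 0.0133 and adjusted p = 1.00 from limma), with 0.41, 0.24 and 0.54 within sows. With the sow in the model its unadjusted p was 0.000888 and its adjusted p 0.251 from limma, while without a trend in the variances its unadjusted p was 0.0620. With each array left out in turn, probe set B stayed between -0.83 and -0.52 and probe set A between 0.35 and 0.50. The log2 ratio of B to A came to 0.74, 0.17 and 0.10 in oocyte horns against -0.34, -0.998 and -0.84 in embryo horns. The ratio is given as a description with no test, since the pair was chosen for its opposite signs, as were the other pairs of probe sets below.

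**Figure D2:**
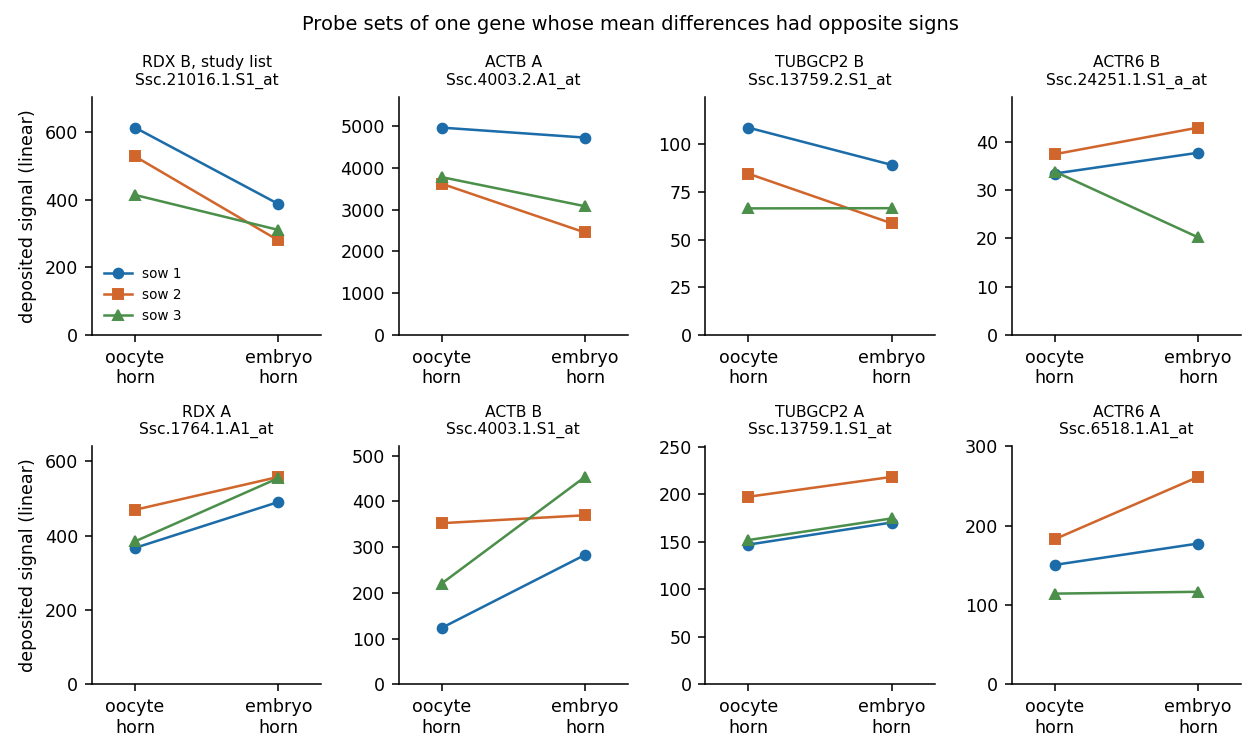
Deposited signal (y axis, linear, arbitrary units, starting at 0) in the oocyte horn and the embryo horn of each sow (x axis, 1 line per sow) for pairs of probe sets (letter and probe set name above each panel) of RDX, ACTB, TUBGCP2 and ACTR6, with the probe set of lower log2 difference above and that of higher difference below. The lines of the RDX probe sets run down in all 3 sows above and up in all 3 sows below.

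For the other ERM proteins the groups overlapped at every probe set. Ezrin, the ERM protein typical of epithelial microvilli, gave signals of 943.3, 729.5 and 767.5 with oocytes and 993.8, 674.6 and 718.7 with embryos (log2 difference -0.04, standard error 0.18, unadjusted p = 0.817 from limma). The groups overlapped over nearly their whole range, and the sow with the highest signal was the same in both. Moesin (A) read 305.3, 234.8 and 239.6 with oocytes and 311.1, 240.4 and 279.3 with embryos (log2 difference 0.09, standard error 0.17). This MSN probe set was slightly higher with embryos in each sow and its groups overlapped. A dim MSN probe set (B) was lower in each sow, at 32.3, 19.4 and 15.0 against 22.5, 1.3 and 11.3. Its log2 difference of -1.63 (standard error 0.90, unadjusted p = 0.105 without and 0.0331 with the sow, from limma) came mostly from the signal of 1.3 in sow 2, where the log2 difference was -3.82.

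Beta-actin, the cytoplasmic actin that the study's qPCR used as its reference, was measured by 2 probe sets that also pointed in opposite directions. The probe set A gave 4964.5, 3621.2 and 3779.2 with oocytes and 4725.7, 2454.3 and 3083.1 with embryos. It was lower with embryos in each sow, most in sow 2, while the groups overlapped. Its log2 difference was -0.30 (standard error 0.24, unadjusted p = 0.247 without and 0.00827 with the sow, from limma), and it was -0.076 without the embryo array of sow 2 and -0.57 without that of sow 1. The probe set B gave 123.3, 352.4 and 220.4 with oocytes and 283.0, 369.7 and 453.6 with embryos. It was higher with embryos in each sow, by 2.30-fold and 2.06-fold in sows 1 and 3 but by 1.05-fold in sow 2. Its log2 difference was 0.77 (standard error 0.34, unadjusted p = 0.0504 without and 0.00177 with the sow, from limma), and 0.39 to 1.12 with each array left out in turn. The log2 ratio of A to B was lower with embryos in 3 of 3 sows, but the groups overlapped.

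Gamma-actin, the other cytoplasmic actin, had 6 tested probe sets, 3 of them above the median signal. The probe set A gave 5098.1, 4889.9 and 4666.2 with oocytes and 5390.9, 4797.9 and 4474.0 with embryos. The horns of a sow were within 1.06-fold of each other, and the log2 difference was 0.01 (standard error 0.11). The other ACTG1 probe sets above the median signal read 249.4, 426.2 and 271.4 against 232.4, 470.7 and 360.0 (log2 difference 0.15, standard error 0.27) and 23.2, 42.1 and 35.8 against 59.1, 44.1 and 30.4 (0.39, standard error 0.34). Neither kept 1 direction across the sows. The 3 dim ACTG1 probe sets read between 0.7 and 15.0 on all arrays and their log2 differences were -0.57, -0.02 and 0.51, with standard errors of 0.67 to 1.12.

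The 4 actin control probe sets, which the annotation also names ACTG1, lie at different positions along the actin transcript and were made from the same cDNA as the probe set A. The control at the 3′ end gave 5394.4, 5273.7 and 4764.7 with oocytes and 5482.4, 4817.8 and 4820.3 with embryos. The control at the 5′ end gave 1179.4, 555.8 and 563.8 with oocytes and 814.3, 277.9 and 501.0 with embryos. The log2 difference between the groups was -0.02 at the 3′ end, -0.16 in the middle and -0.57 and -0.62 for the 2 controls at the 5′ end, none of which was tested in the model. The difference for the same transcript thus widened toward the 5′ end.

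Divided by the 3′ control, the 5′ control gave 0.219, 0.105 and 0.118 with oocytes and 0.149, 0.0577 and 0.104 with embryos. It was lower with embryos in 3 of 3 sows, although the groups overlapped (two-sided exact permutation test of the log2 ratio, p = 0.4, where 3 against 3 arrays cannot give less than 0.1). This test shuffled the arrays without regard to the sow, here and below, so that it does not measure the change within sows. The middle control divided by the 3′ control gave 0.469, 0.391 and 0.417 against 0.429, 0.329 and 0.406 (p = 0.5 in the same exact test). The controls of GAPDH, a glycolytic enzyme unrelated to the cytoskeleton, gave corresponding ratios of 0.355, 0.200 and 0.226 against 0.243, 0.130 and 0.199, which were again lower with embryos in 3 of 3 sows (exact permutation test, p = 0.4). In all 3 series the ratio was highest in the oocyte horn of sow 1 and lowest in the embryo horn of sow 2. The part of this shift along the transcript in the differences of the other probe sets was not tested, since the positions of their probes were not used here.

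**Figure D3:**
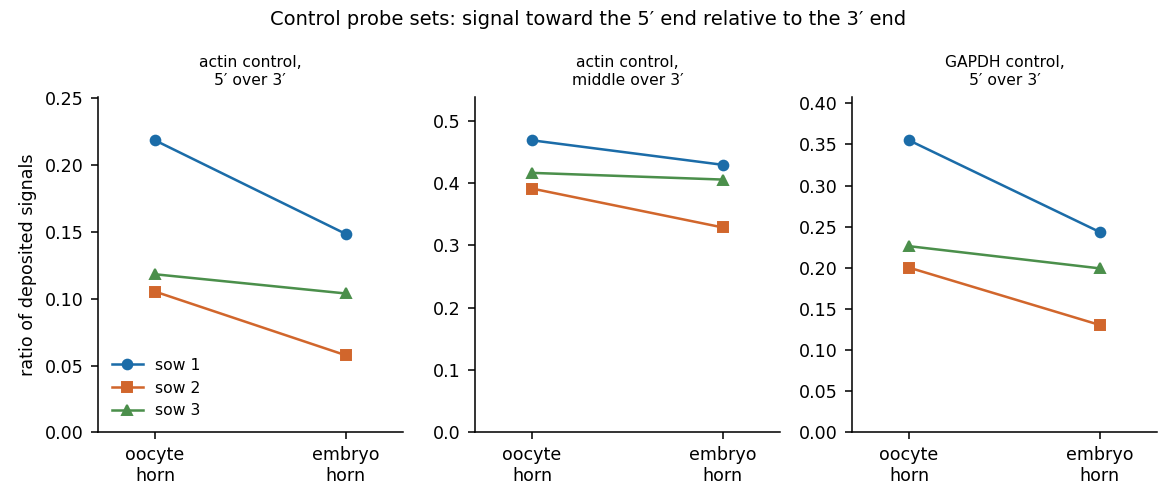
Ratio of deposited signals of control probe sets (y axis, linear, starting at 0; each panel has its own scale) in the oocyte horn and the embryo horn (x axis), with 1 line per sow, for the actin control at the 5′ end over the 3′ end, the actin control in the middle over the 3′ end, and the GAPDH control at the 5′ end over the 3′ end. All 9 lines run downward from the oocyte to the embryo horn, from 0.219, 0.105 and 0.118 to 0.149, 0.0577 and 0.104 in the first panel.

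Over all 62 probe sets above the median signal, the highest normalized signal was in the oocyte horn of sow 1 for 22 (35.5%, against 21.8% of all probe sets above the median) and the lowest in the embryo horn of sow 2 for 19 (30.6%, against 20.4%).

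The Arp2/3 complex and the actin-related proteins had 22 probe sets, 16 of them above the median signal. Differences were small, with a median of -0.04. Of the 22, 9 were higher and 13 lower with embryos, where 49.2% of all probe sets tested were lower. Without the sow 0 had an unadjusted p under 0.05, against 2.88% of all probe sets. With the sow 1 did, against 8.7% of all. ACTR3 A (Arp3, which with Arp2 forms the start of a new branch) gave 1293.8, 1721.1 and 1803.5 with oocytes and 1360.9, 1600.4 and 1647.2 with embryos (log2 difference -0.05, standard error 0.14). Another ACTR3 probe set (B) was lower with embryos in each sow, at 1172.0, 1384.2 and 1339.3 against 1049.3, 1183.3 and 1274.9 (-0.15, standard error 0.12, unadjusted p = 0.227 from limma). ARPC3, a subunit of the complex, gave 635.1, 685.0 and 780.4 against 611.6, 821.3 and 743.6 (0.05, standard error 0.13). The ARPC2 probe set was too dim to place this subunit, since it read 15.0, 4.5 and 18.8 against 4.8, 4.9 and 1.9 (-1.63, standard error 0.72, unadjusted p = 0.0503 from limma).

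ARPC1A, a subunit of the complex, is in the study's list with the probe set B. It gave 430.9, 233.9 and 327.2 with oocytes and 356.8, 161.6 and 307.5 with embryos. It was lower with embryos in each sow, but the groups overlapped. Its log2 difference was -0.30 (standard error 0.33, unadjusted p = 0.382 without and 0.0142 with the sow, from limma), with -0.28, -0.54 and -0.08 within sows. This difference became 0.05 when the embryo array of sow 2 was left out while the oocyte array of that sow stayed in. The study chose it on these arrays, so that the direction is not independently supported. The other ARPC1A probe set of above-median signal (A) gave 472.6, 402.3 and 481.7 against 500.6, 413.4 and 476.4, with a log2 difference of 0.03 (standard error 0.14). The log2 ratio of the probe sets was lower with embryos in 3 of 3 sows, with overlap between the groups.

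Other actin-related proteins have roles apart from branching. ACTR1A (A), the actin-like core of dynactin, gave 191.7, 199.0 and 204.2 with oocytes and 221.6, 201.2 and 217.8 with embryos (log2 difference 0.10, standard error 0.12). Its probe sets B and C, both below the median signal, had mean differences of the other sign. These were -0.39 (standard error 0.32) and -0.34 (standard error 0.30), and neither kept 1 direction across the sows. ACTR6, a nuclear actin-related protein, was higher with embryos in each sow by the probe set A, at 150.4, 182.8 and 114.2 against 177.3, 261.2 and 116.5 (0.26, standard error 0.30, unadjusted p = 0.415 without and 0.0543 with the sow, from limma), but -0.03 without the embryo array of sow 2. Its probe set B read 33.4, 37.4 and 33.8 against 37.7, 42.9 and 20.2 (-0.13, standard error 0.33), higher with embryos in sows 1 and 2 and lower in sow 3.

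Proteins that bind actin monomers had mean differences close to 0. In 11 probe sets of thymosins, cofilins and profilin, 0 had an unadjusted p under 0.05 in either model. Of all probe sets, 2.88% did without the sow and 8.7% with it. The log2 differences of the 11 ranged from -0.13 to 0.19. TMSB4X (thymosin beta 4, which holds free actin) gave 7223.2, 7102.3 and 6646.0 with oocytes and 7443.3, 6914.0 and 7085.3 with embryos (log2 difference 0.05, standard error 0.10). All 5 of its probe sets had a mean difference above 0, between 0.02 and 0.14, and each was smaller than its standard error. CFL1 (cofilin, which severs filaments) gave 1262.2, 1127.9 and 1118.5 against 1087.6, 1176.3 and 1066.0 (-0.07, standard error 0.11). PFN2 (profilin, which feeds monomers to growing ends) gave 295.4, 253.9 and 366.9 against 304.9, 261.9 and 345.3 (-0.00, standard error 0.17).

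Capping protein, the dimer of an alpha and a beta subunit that closes the fast-growing end of a filament, had its brighter probe sets lower with embryos in each sow for both subunits. CAPZA2 (A), the alpha subunit, gave 844.3, 606.4 and 772.0 with oocytes and 755.6, 447.4 and 581.1 with embryos. The log2 difference was -0.34 (standard error 0.22, unadjusted p = 0.157 without and 0.00194 with the sow, from limma), and the groups overlapped. It was -0.14 without the embryo array of sow 2 and -0.54 without that of sow 1. CAPZB, the beta subunit, gave 191.1, 150.0 and 134.7 against 147.0, 130.9 and 86.9 by the probe set A. Its log2 difference was -0.41 (standard error 0.23, unadjusted p = 0.118 without and 0.00659 with the sow, from limma), again with overlap, and it was -0.18 without the embryo array of sow 3. The CAPZB probe set B gave 128.3, 70.2 and 52.1 against 94.7, 47.7 and 59.1, higher with embryos in sow 3 (-0.28, standard error 0.36, unadjusted p = 0.139 with the sow, from limma). Neither CAPZA2 A nor CAPZB A passed the adjustment over the array (adjusted p = 0.284 and 0.404 with the sow, from limma). A dim CAPZB probe set went the other way in each sow, at 3.4, 9.9 and 0.9 against 3.8, 13.9 and 13.6 (1.50, standard error 0.96), mostly in sow 3.

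Gelsolin and villin sever filaments in the presence of calcium, and their mean differences lay above 0. GSN (A) gave 1134.9, 1143.5 and 1719.5 with oocytes and 1118.3, 1147.2 and 1973.3 with embryos (log2 difference 0.06, standard error 0.25), with sow 3 above the others in both groups. Another GSN probe set (B) was higher with embryos in each sow, at 59.7, 82.7 and 74.3 against 66.5, 101.7 and 94.6 (0.26, standard error 0.23, unadjusted p = 0.292 from limma). VIL1, a protein of intestinal-type microvilli, had signals of only 11.0, 15.1 and 21.4 against 16.9, 20.6 and 25.5 (0.42, standard error 0.41), below the array median.

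Tropomyosins wrap along actin filaments and set which motors and severing proteins reach them. For TPM1, TPM3 and TPM4, 7 of 8 probe sets had lower mean signals with embryos, where 49.2% of all probe sets tested were lower. The 7 include TPM1 A at -0.01 and a TPM3 probe set (C) with signals of 0.9 to 8.8, and the alpha-actinins and these tropomyosins together had 9 of 13 lower. TPM2, left out by the rule, was read at 1 of its 4 probe sets. There the log2 difference was 0.13 (standard error 0.48), with -0.90, 0.71 and 0.60 within sows. The TPM1 probe set B gave 1478.9, 1395.7 and 825.7 with oocytes and 1180.4, 803.2 and 747.2 with embryos. It was lower in each sow, most in sow 2 (log2 difference -0.80 there), while sow 3 lay low in both groups. The log2 difference was -0.42 (standard error 0.26, unadjusted p = 0.140 without and 0.00411 with the sow, from limma), and it ranged from -0.69 without the oocyte array of sow 3 to -0.25 without the oocyte array of sow 1. The TPM1 probe set A gave 3940.5, 4074.3 and 3040.1 against 3928.0, 3715.9 and 3223.1, with a difference of -0.01 (standard error 0.14). The TPM1 probe set C gave 27.4, 51.0 and 36.9 against 46.8, 43.4 and 34.5 (0.14, standard error 0.30), and the log2 ratio of B to C was lower with embryos in 2 of 3 sows.

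TPM3 is in the study's list with the probe set B, chosen there on these same arrays. It gave 1765.4, 1758.3 and 1300.4 with oocytes and 1581.2, 1427.7 and 1059.8 with embryos. The signal was lower with embryos by 0.17, 0.30 and 0.27 within sows 1, 2 and 3, and the groups overlapped because sow 3 was low in both. The log2 difference was -0.25 (standard error 0.18, unadjusted p = 0.213 without and 0.00498 with the sow, from limma), and it ranged from -0.40 without the oocyte array of sow 3 to -0.085 without the embryo array of sow 3. The other bright probe set of TPM3 (A) gave 1971.9, 1862.2 and 1436.5 against 1914.4, 1636.7 and 1407.2, with the same direction in each sow and a difference of -0.08 (standard error 0.17), or 0.03 without the oocyte array of sow 1. For TPM4 the 2 probe sets had close mean differences, with -0.18 (standard error 0.26) from 1099.9, 801.2 and 959.4 against 1221.7, 584.2 and 821.9 and -0.20 (standard error 0.27) from 706.4, 396.8 and 511.6 against 537.6, 325.3 and 543.8. Neither kept 1 direction in all sows, and both turned positive (0.10 and 0.06) without the embryo array of sow 2.

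Alpha-actinins cross-link filaments, and their 5 probe sets had mean differences on both sides of 0. The ACTN1 probe set B gave 81.2, 55.4 and 63.0 with oocytes and 146.8, 120.5 and 60.4 with embryos. It was 1.81-fold and 2.18-fold higher with embryos in sows 1 and 2 and 0.96-fold in sow 3 (log2 difference 0.63, standard error 0.33, unadjusted p = 0.0860 without and 0.0130 with the sow, from limma), and it ranged from 0.39 to 1.02 with each array left out in turn. The ACTN1 probe set A gave 433.3, 306.9 and 388.8 against 435.0, 355.1 and 438.4, a difference of 0.13 (standard error 0.17), and the dim ACTN1 probe set C had one of -0.03 (standard error 0.46). ACTN2, the alpha-actinin of striated muscle, was below the median with both probe sets (-0.25 and 0.04).

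**Figure D4:**
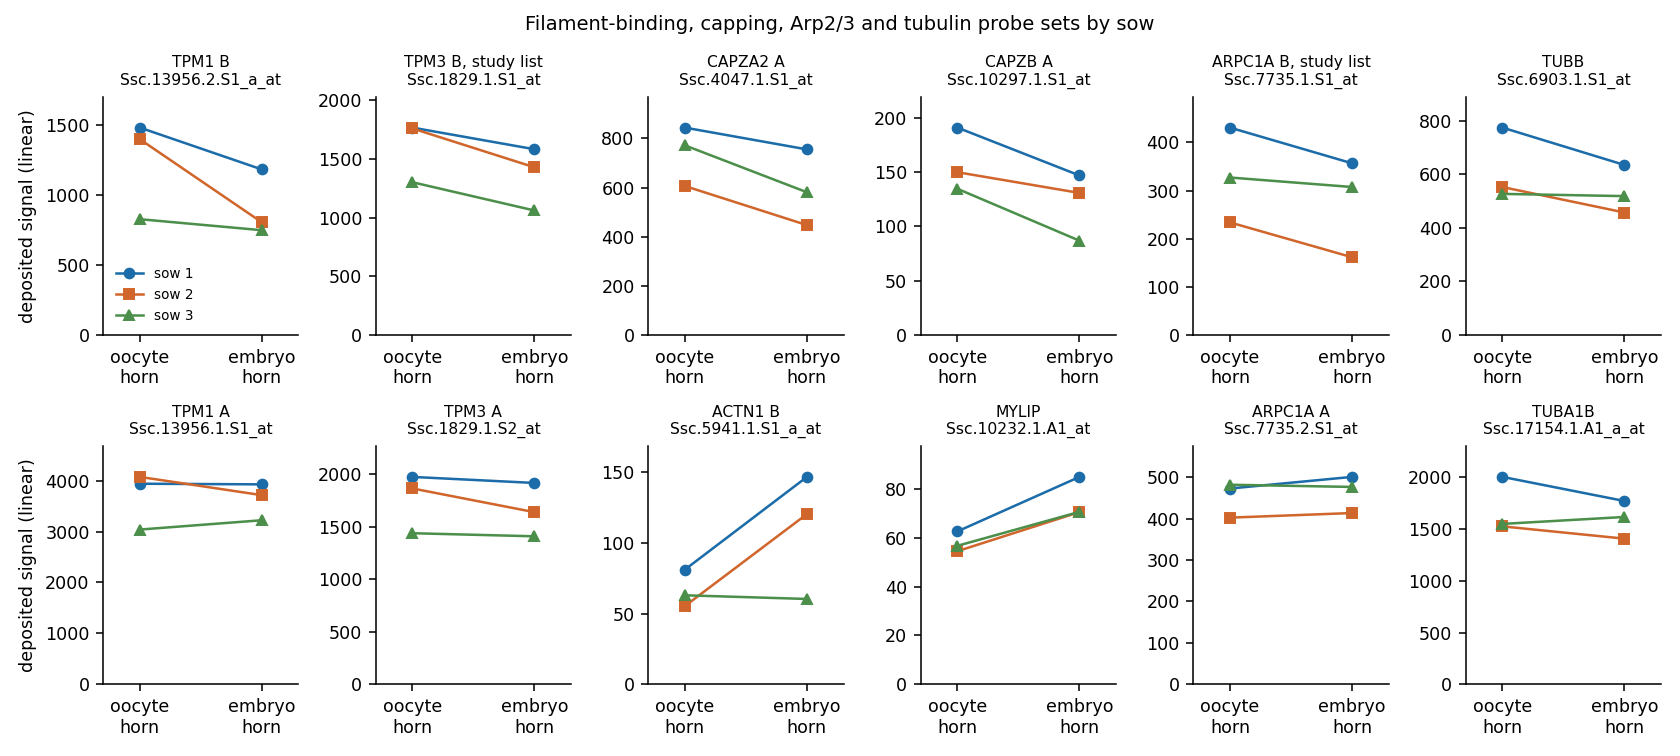
Deposited signal (y axis, linear, arbitrary units, starting at 0; each panel has its own scale) in the oocyte horn and the embryo horn of each sow (x axis, 1 line per sow) for probe sets of TPM1, TPM3, CAPZA2, CAPZB, ARPC1A, TUBB, ACTN1, MYLIP and TUBA1B. The panels of the upper row run down in all 3 sows, by log2 differences of -0.20 to -0.42.

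Myosin light chains, which sit on the neck of the myosin heavy chain, divided into those of non-muscle and smooth muscle cells and those of striated muscle. MYL6, the light chain that non-muscle cells share with smooth muscle, gave 2085.6, 1895.9 and 2119.7 with oocytes and 1875.1, 2038.6 and 1948.1 with embryos (log2 difference -0.05, standard error 0.10). MYL9, a regulatory light chain of smooth muscle and non-muscle cells, gave 142.8, 61.1 and 55.1 against 139.1, 81.9 and 89.2 (0.36, standard error 0.37, unadjusted p = 0.359 without and 0.0493 with the sow, from limma). Sow 1 was high in both horns. The summed signal of 8 measured smooth muscle markers, from 748.5 to 2749.6 with oocytes and from 911.6 to 1848.8 with embryos, was also highest in sow 1. Its part in the MYL9 values was not tested. The light chains of striated muscle (MYL1, MYL2, MYL3, MYL4 and MYLPF) were all below the median, with signals from 0.5 to 33.2 and differences from -1.01 to 1.39.

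Of the unconventional myosins, which carry cargo or link membranes to actin, 10 probe sets of 8 genes were tested. In either model 0 of the 10 had an unadjusted p under 0.05, where 2.88% of all probe sets did without the sow and 8.7% with it. MYO5B, a motor for recycling vesicles in epithelia, gave 630.4, 1402.0 and 1218.5 with oocytes and 575.7, 1294.5 and 1212.6 with embryos (log2 difference -0.08, standard error 0.35). Sow 1 was the lowest in both groups, while the horns of a sow were within 0.14 of each other on the log2 scale. MYO6, the motor that moves toward the minus end of actin filaments, gave 779.5, 610.2 and 778.0 against 842.7, 589.6 and 672.2 (-0.05, standard error 0.17). MYO1F, a myosin best known from leukocytes, was dim, and its groups did not overlap, at 19.2, 23.6 and 16.0 against 31.5, 27.8 and 26.8 (0.55, standard error 0.30, unadjusted p = 0.0972 from limma). The leukocyte markers were all below the median signal.

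Tubulins and the gamma-tubulin complex had 9 probe sets, of which 5 were lower and 4 higher with embryos on average, against 49.2% of all probe sets lower. TUBA1B, a widely expressed alpha-tubulin, gave 2004.7, 1526.5 and 1550.4 with oocytes and 1771.7, 1407.8 and 1617.5 with embryos (log2 difference -0.07, standard error 0.16). TUBB, a beta-tubulin, was lower in each sow, at 774.7, 552.6 and 527.1 against 635.1, 457.5 and 518.8 (-0.20, standard error 0.20, unadjusted p = 0.348 without and 0.0420 with the sow, from limma), or -0.0021 without the oocyte array of sow 1 and -0.074 without the embryo array of sow 2. TUBB4B, another beta-tubulin, was also lower in each sow, at 75.3, 47.4 and 52.8 against 70.9, 21.3 and 38.4 (-0.57, standard error 0.39, unadjusted p = 0.177 without and 0.0270 with the sow, from limma), mostly in sow 2, without whose embryo array it was -0.17. The groups overlapped for all 3 genes.

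TUBGCP2, a subunit of the ring complex from which microtubules grow, gave opposite signs at its probe sets above the median. The probe set A gave 147.0, 197.4 and 151.8 with oocytes and 170.3, 218.3 and 174.6 with embryos, higher in each sow by 0.20, 0.15 and 0.20 (log2 difference 0.18, standard error 0.17). The probe set B gave 108.6, 84.5 and 66.3 against 89.1, 58.5 and 66.4 (-0.28, standard error 0.24), where sow 3 was level between the horns (log2 difference -0.013). Their log2 ratio was lower with embryos in 3 of 3 sows, with overlap between the groups.

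MYLIP, caught by its prefix, gave 62.6, 54.5 and 56.7 with oocytes and 84.9, 70.5 and 70.6 with embryos. The groups did not overlap and each sow was higher with embryos (log2 difference 0.37, standard error 0.18, unadjusted p = 0.0669 without and 0.0295 with the sow, from limma). CFLAR (A) gave 537.0, 644.4 and 654.6 against 593.0, 657.6 and 587.3 (0.00, standard error 0.12), and its probe set B 168.0, 177.9 and 138.6 against 135.9, 152.3 and 143.4 (-0.17, standard error 0.15).

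Probe sets of one gene could differ in sign. Of 25 genes with at least 2 tested probe sets, 16 had them on both sides of 0, 7 had all of them lower and 2 (GSN and TMSB4X) all of them higher with embryos. Restricted to probe sets above the median signal, 17 genes had at least 2, and 8 of these had them on both sides of 0 (ACTB, RDX, TPM1, TUBGCP2, ACTR6, ARPC1A, MYO5A and CFLAR). Differences close to 0 can fall on either side of it through measurement error, whose part in these counts was not tested. The same counts over all genes of the array with several probe sets were not taken here. The counts in this paragraph therefore do not show whether such splits were more common in these genes than elsewhere on the array. The distance between the lowest and the highest log2 difference was 1.06 for both ACTB and RDX, 0.56 for TPM1 and 0.46 for TUBGCP2. By normalized signal, 5 genes (ACTB, RDX, TUBGCP2, CAPZB and MSN) had 1 probe set lower and another higher with embryos in all 3 sows. For TUBGCP2 this counts the level sow 3 (-0.013), and for CAPZB and MSN 1 of the probe sets lay below the median signal. The remaining 30 genes had a single probe set, so that no such check was possible.

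**Figure D5:**
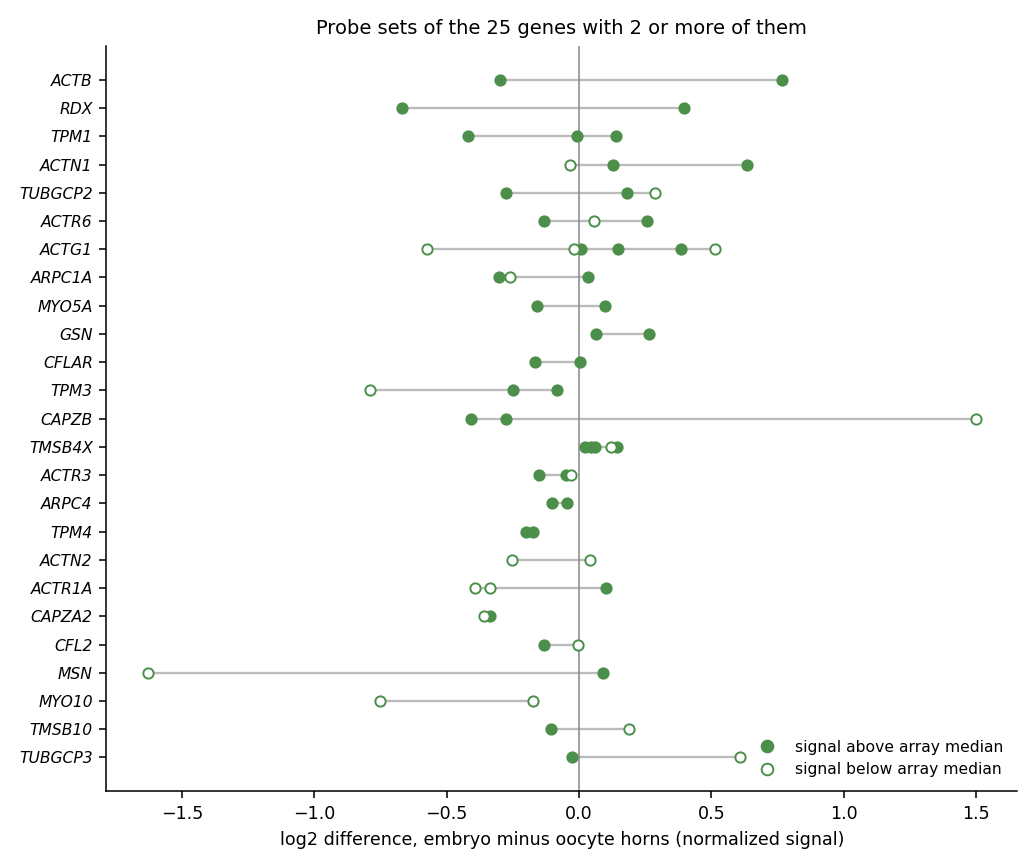
Log2 difference between horns with embryos and horns with oocytes (x axis, normalized signal, embryos minus oocytes) for every tested probe set of the 25 genes with at least 2 (y axis), joined by a line per gene. Filled points lie above the median signal of the array and open points below it, and for 16 of the 25 genes the line crosses 0.

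Regulators and partners of the same system were also centred near 0. Of 53 measured genes (actin regulators such as RHOA and ROCK1, cross-linkers, conventional myosin heavy chains, ERM partners and microtubule partners), each read at its brightest probe set, 25 were higher and 28 lower with embryos, with a median log2 difference of -0.02, and 0 had an unadjusted p under 0.05 without the sow. Without the sow the share of all probe sets was 2.88%. With the sow in the model 6 of the 53 had an unadjusted p under 0.05. The share was then 8.7% of all probe sets and 11.9% of those above the median signal. Of the 6, 3 were higher: PPP1CB (a catalytic subunit of myosin phosphatase, 0.29), MAP4 (a microtubule-associated protein, 0.34) and KIF5B (a kinesin heavy chain, 0.23). The 3 lower were ROCK1 (a kinase that raises myosin activity, -0.59), WASL (an activator of the Arp2/3 complex, -0.28) and CNN3 (a calponin, -0.27). The paper lists ROCK1 among its differentially expressed transcripts, chosen on these same arrays, so that its direction is not independently supported. ROCK1 was read here at 1 of its 3 probe sets. MYH9, the non-muscle myosin heavy chain that MYL6 and MYL9 bind, gave 1171.0, 1355.1 and 1247.8 with oocytes and 1062.3, 1158.8 and 1211.2 with embryos (-0.13, standard error 0.11, unadjusted p = 0.239 from limma). In none of the marker lists for cell types did a gene have an unadjusted p under 0.05 in either model. Of all probe sets, 2.88% did so without the sow and 8.7% with it.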

How the data were processed

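Total RNA from scraped uterine epithelial cells was hybridised to 6 Affymetrix porcine arrays. The authors computed 1 intensity per probe set and array with MAS5 (version 5.1, named in the submitters' processing notes) and deposited it on a linear scale, with the mean of each array without its outer 2% set to 100.02. These values precede the Lowess step and the probe-level model of the methods. Detection calls and single-probe signals were not used here. Signals under 0.1 were set to 0.1, taken to log2 and normalized by cyclic loess on all 24123 probe sets. After removal of 124 control probe sets, 23999 were tested without a filter on low signals with limma 3.58.1 in R 4.3.3 (group as the only term, moderated variances with a trend, Benjamini-Hochberg adjustment at 0.05). Exact permutation tests used scipy 1.17.1 and plots matplotlib 3.10.9 in Python 3.11.15. The fit was tested on simulated data.

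Groups came from the labels. Equal replicate numbers were taken as 1 sow, since the design puts both horns in the same animal, the 6 per-sow ratios that the methods print for another pair of probe sets equal the ratios of same-numbered arrays within 0.005, and the correlation between the deviations of same-numbered arrays from their groups was 0.21, 0.17 and 0.10. The fit with the replicate number as a block was an alternative. Labels and methods differ on the length of horn scraped, with the labels giving the first 10 cm. The labels and methods tie each array to 1 sow. Without the block, p-values set the group difference against the spread between the 3 sows of a group. With the block, they set it against the spread of the differences within sows. In both models the moderated variances also drew on the other probe sets.

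The annotation symbol of 98 of the 100 probe sets matched the current gene table through its identifier, and 2 (GSN) had no entry. Annotation of 5 probe sets gives TMSB4X for 2 gene records and was counted as 1 symbol, and 7 probe sets with several symbols were left out. Members and gene lists were chosen with earlier results of these data known. Named were RDX, EZR, MSN, VIL1, GSN, ACTB, ACTG1, genes of the study's list, the brightest gene of each family, up to 8 probe sets per direction with the smallest p among those above the median signal with 1 direction in all sows, up to 6 genes with probe sets on both sides of 0, and CFLAR and MYLIP. Singled out after their values were seen were ACTR1A B and C, TPM3 A and C, ACTN1 B and C and CAPZB B and C. So were both TPM4 and the MYL9, MYO1F, ARPC2 and MYO6 probe sets. An item of the study's list is not reported here. No sequences were shown, since no table of them was used here.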

Additional observations from a re-analysis of the deposited data

How the results depend on the processing

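With limma, 0 probe sets passed the adjusted threshold in every alternative, among the 96 and on the whole array: deposited values, quantile normalization, arrays shifted to the same median, 32 added before log2, a filter at the median signal, variances without a trend, the replicate block, and each array left out. Without a variance trend the count of 2 at an unadjusted p under 0.05 held RDX B and MYO1F but not RDX A. At that level the replicate block changed the count from 2 to 15 of the 96 and from 692 to 2088 on the whole array. It changed no adjusted call. In this balanced design the block cannot change a log2 difference, and neither can the variance setting or the filter, so that these 3 alternatives could not change a direction. The filter on signal gave 232 on the whole array, where fewer probe sets were tested. With single arrays left out the count among the 96 ranged from 3 to 8, that on the whole array from 554 to 1036, the members' median from -0.05 to 0.03, and the genes with probe sets on both sides of 0 from 15 to 19, against 8 with only probe sets above the median signal. Both choices added after seeing the data, leaving out the TMSB4X probe sets with 2 gene records or CFLAR and MYLIP, left the count at 2.

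Of 53 named probe sets, 28 kept their direction under every alternative and 25 did not. All 25 changed direction in a fit with a single array left out, where the other horn of that sow stayed in without a sow term. Such a change can come from the levels of the sows and does not show that the within-sow direction changed. Fits with both horns of a sow left out were not run, and the cause was not tested. With single arrays left out, the log2 difference ranged from -0.18 to 0.036 for ACTR3 A, from -0.034 to 0.56 and -0.40 to 0.20 for ACTR6 A and B, from -0.057 to 0.13 and -0.55 to 0.054 for ARPC1A A and B, from -0.037 to 0.15 for ARPC3, from -0.23 to 0.087 for EZR and from -0.014 to 0.23 for MSN A. For ACTG1 it ranged from -0.070 to 0.057, -0.079 to 0.40, -0.43 to 1.40 and -0.96 to 0.90 for probe sets A, B, D and E. It also ranged from -0.11 to 0.0026 for CFL1, from -0.13 to 0.13 for PFN2, from -0.067 to 0.047 for CFLAR A, from -0.21 to 0.26 for GSN A, from -0.020 to 0.26 for ACTN1 A and from -0.14 to 0.062 and -0.10 to 0.39 for TPM1 A and C. The other ranges ran from -0.22 to 0.026 for TPM3 A, from -0.47 to 0.098 and -0.41 to 0.057 for TPM4 A and B, from -0.17 to 0.071 for TUBA1B, from -0.41 to 0.28 for MYO5B and from -0.21 to 0.080 for MYO6. Under other alternatives, ACTG1 A was -0.0025 as deposited, ACTG1 E was 0.019 as deposited, 0.025 at the same median and 0.045 with 32 added, and PFN2 was 0.00096 as deposited and 0.0067 at the same median.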
